A study of Rattus norvegicus with 6 samples.

Results

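Integrins, cadherins, protocadherins and the cytoplasmic proteins of focal adhesions were followed here in C6 cells with and without added AQP1. Members were taken by symbol from the deposited count tables: the numbered integrin alpha and beta chains and the alpha v chain, the numbered cadherins, every gene named as a protocadherin, the focal adhesion proteins Parva, Parvb, Tln1, Tln2, Vcl, Pxn, Ptk2, Ilk, Fermt2 and Zyx, and the surface molecules Ncam1 and L1cam. This rule found 55 of the 12121 listed genes, namely 16 integrins, 7 cadherins, 20 protocadherins, 10 adaptors, and Ncam1 and L1cam, which are described apart from the adaptors. No value of these libraries entered the rule, but the authors had kept genes by expression, so a member with very few counts in one group could be listed only through the other.

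C6 is an established rat glioma line, and AQP1 is a membrane protein that lets water through. RNA-seq was performed on 3 libraries of C6 cells labelled as overexpressing Aqp1 (C6-AQP1) and 3 libraries of C6 cells with the genotype label control (C6 control). According to the methods, Aqp1 was introduced with a vector of the pCDH series that also carries CopGFP and puromycin resistance. This vector name has nothing to do with protocadherins. It is not stated whether the C6 control carries an empty vector, whether the C6-AQP1 line is 1 clone, or whether replicate libraries stem from cultures grown apart. The p-values are therefore set by library-to-library spread, which could be purely technical, and an effect of AQP1 cannot be told apart from one of the vector or of clonal selection.

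Integrins are receptors made of 1 alpha and 1 beta chain that hold the cell to laminins, collagens, fibronectin and other matrix proteins, and the pair decides the ligand. Inside the cell, talin and kindlin switch the receptor on, and the complex of ILK, PINCH and parvin, with vinculin, paxillin, zyxin and the kinase FAK, ties it to actin at focal adhesions. Classical cadherins join neighbouring cells by binding their own kind and are tied to actin by catenins. Protocadherins are a larger branch of the cadherin family, best known for recognition between neural cells. An exchange of cadherins is a well-known feature of migrating neural crest cells.

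The libraries held 19054251 to 52725877 rounded counts, with the fewest in replicate 1 of each group (22728106 in C6 control and 19054251 in C6-AQP1). Aqp1 itself had 347, 352 and 349 CPM (counts scaled to library size by the TMM method) in C6 control replicates 1, 2 and 3, and 1052, 1064 and 1057 CPM in C6-AQP1 replicates 1, 2 and 3, a log2 fold change of 1.60 (SE 0.02, adjusted p = 5.8e-25). Here a gene counts as measured if the authors' expression filter kept it, and as a rise at an adjusted p under 0.05 (edgeR). Of all genes, 40.8% rose in this sense. Of 9 astroglial and glioma markers 7 were measured and all 7 rose. Their summed level was 4719 to 4804 CPM in C6 control and 7005 to 7190 CPM in C6-AQP1. Among markers of other cells, 3 of 4 measured neuronal markers (of 7) and 6 of 7 measured oligodendrocyte lineage markers (of 8) rose. Their summed levels were 85.1 to 88.4 CPM and 1637 to 1729 CPM in C6 control, and 268 to 274 CPM and 2416 to 2552 CPM in C6-AQP1. Snap25 and Syt1, neuronal markers that rose, had means of only 0.241 and 0.166 CPM in C6 control. The authors' filter may have kept them only through C6-AQP1, in which case their rise was fixed by the listing. Both measured fibroblast and pericyte markers (Pdgfra and Pdgfrb, of 8) rose, with 701 to 709 CPM in C6 control and 1134 to 1159 CPM in C6-AQP1. The 1 measured endothelial marker (Tek, of 8) had 2.19 to 3.14 CPM and 7.94 to 8.55 CPM. The 1 measured epithelial marker (Epcam, of 7) had 37.4 to 40.2 CPM and 38.0 to 40.8 CPM, and none of 8 myeloid and lymphoid markers was measured. The part of these marker differences in the results was not tested.

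Across the 55 members, 37 rose and 10 fell in C6-AQP1 cells at an adjusted p under 0.05, and 8 were not called (edgeR's quasi-likelihood test, Benjamini-Hochberg over all 12121 genes). The rises made up 67.3% of the members against a background of 40.8% of all genes, and the falls 18.2% against 40.7%. With a fold change above 2 as well, 12 members rose (21.8%, background 9.74%) and 1 fell (1.82%, background 4.35%). The libraries of the 2 groups did not overlap in 47 members, but neither did they in 82.5% of all genes, so this count says little about the members. The median log2 fold change was 0.42 over the members and 0.00 over all genes, and the median size without its sign was 0.50 and 0.43. Integrins, cadherins and protocadherins leaned upward, with median log2 fold changes of 0.58, 1.12 and 0.34. The adaptors did not, with a median of -0.01. Because RNA came from whole cultures, more cells expressing a gene and more RNA per cell cannot be told apart.

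**Figure D1:**
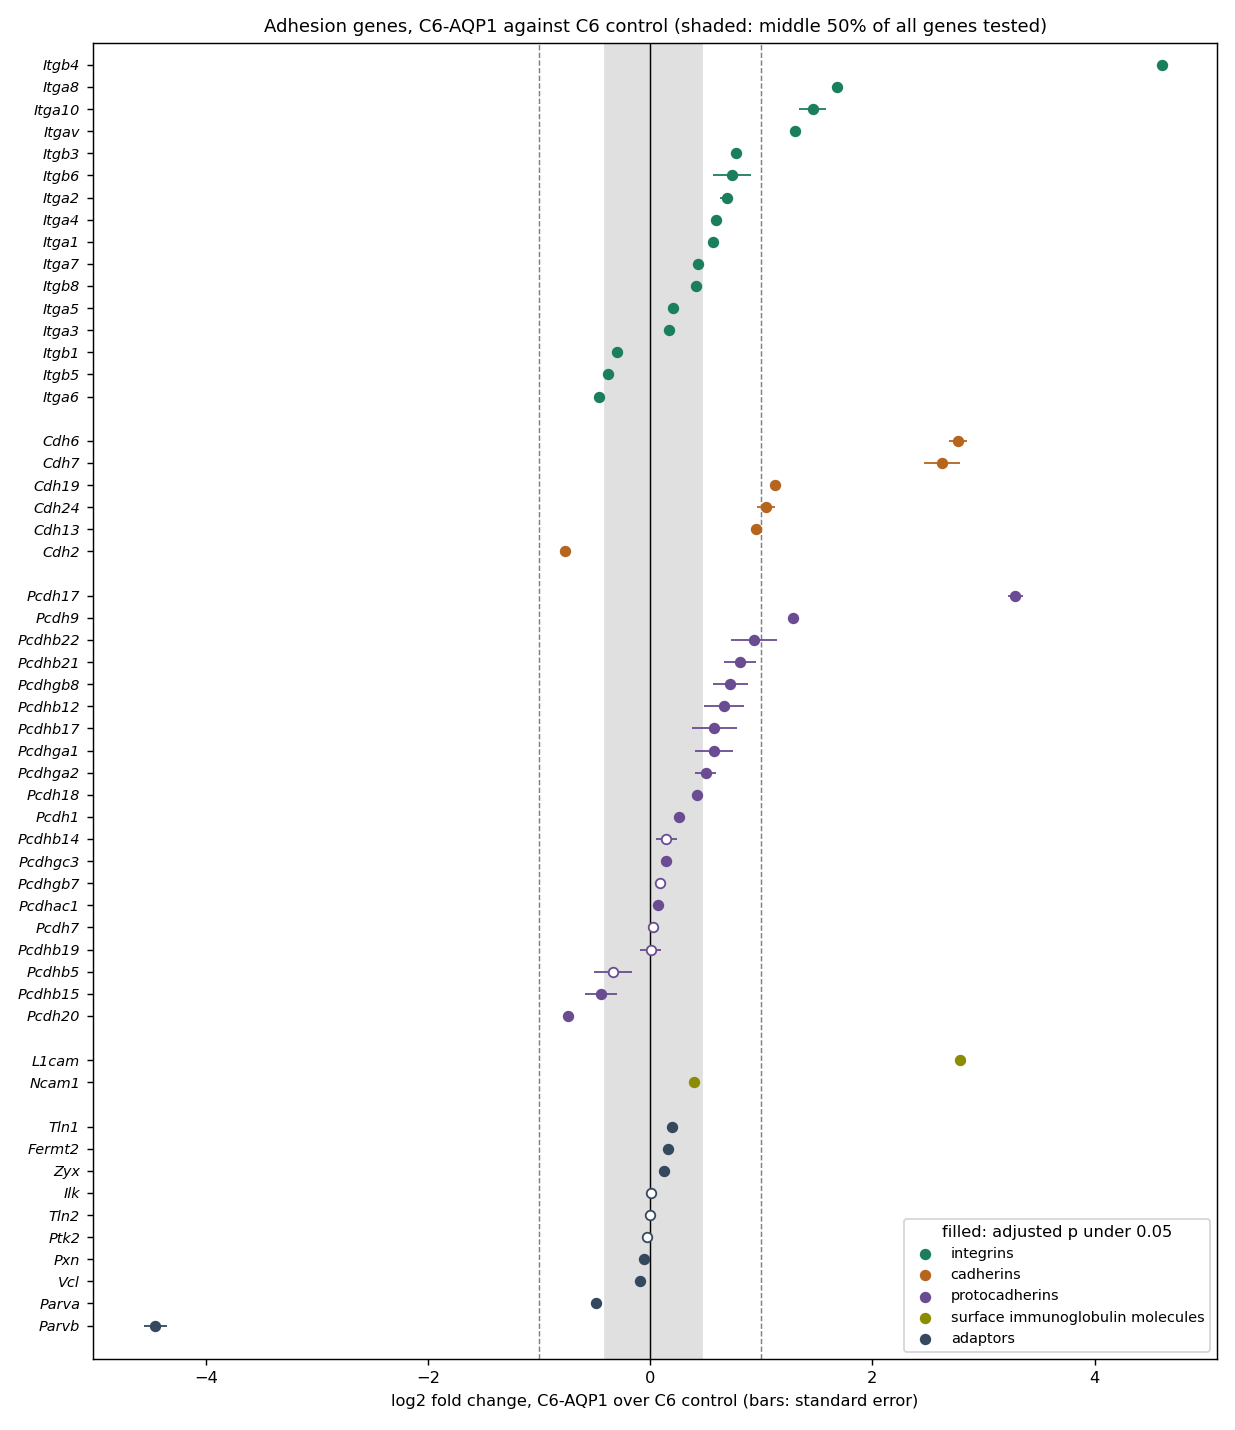
Log2 fold change of C6-AQP1 over C6 control (horizontal axis) for the members, grouped by family; bars are 1 standard error from edgeR, filled points have an adjusted p under 0.05, dashed lines mark a 2-fold change and the shading spans the middle 50% of all genes tested (-0.40 to 0.47). Itgb4 lies farthest right at 4.60 and Parvb farthest left at -4.45, and the other adaptors except Parva, at -0.49, sit close to 0. Cdh11 is left out because its control libraries held 1 count in all.

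The largest difference among the integrins was that of Itgb4 (ENSRNOG00000005580), the beta 4 chain, which pairs only with alpha 6 and forms the laminin receptor of hemidesmosomes. It had 5.83, 6.24 and 6.20 CPM in C6 control replicates 1, 2 and 3 and 144, 151 and 152 CPM in C6-AQP1. All C6-AQP1 libraries lay far above all control libraries. The means were 6.09 ± 0.226 and 149 ± 4.68 CPM (SD, n = 3), 24.5-fold higher in C6-AQP1, with a log2 fold change of 4.60 (SE 0.04, adjusted p = 4.5e-26).

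The alpha chain that Itgb4 needs moved the other way. Itga6, the alpha 6 chain, had 2822, 2837 and 2843 CPM in C6 control and 2040.5, 2074 and 2065 CPM in C6-AQP1. Every C6-AQP1 library was lower, and the gene fell 1.38-fold (log2 fold change -0.46, SE 0.02, adjusted p = 8.5e-17). Its other partner Itgb1, the beta 1 chain shared by most integrins, had 1956, 1922 and 1915 CPM in C6 control and 1585, 1550.1 and 1569 CPM in C6-AQP1, a 1.23-fold fall (log2 fold change -0.30, SE 0.02, adjusted p = 4.4e-13). The log2 ratio of Itgb4 to Itgb1 counts within a library was -8.31 ± 0.0700 in C6 control and -3.40 ± 0.0586 in C6-AQP1 (SD, n = 3), a difference of 4.91. The exact permutation test gave a two-sided p of 0.1 (adjusted 0.1) for this ratio, the smallest that 3 against 3 libraries allow. The same held for the ratios of Itgb3 to Itgb5, Parvb to Parva and Tln2 to Tln1. A ratio of Cdh11 to Cdh2 was formed too, but no p is given for it, because Cdh11 could be listed only through C6-AQP1. Of the other laminin-binding chains, Itga3 rose 1.12-fold (adjusted p = 3.3e-07) and Itga7, the main alpha chain of muscle, rose 1.35-fold (adjusted p = 4.6e-14).

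**Figure D2:**
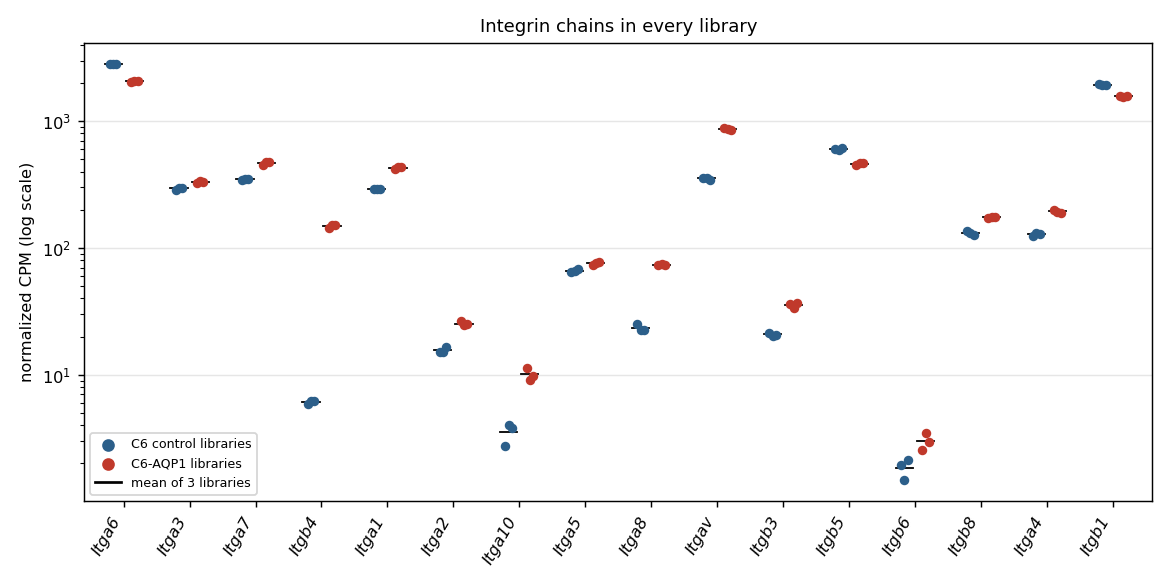
Normalized CPM of the 16 integrin chains in every library (points, log axis; short bars are group means of 3), in the order of their ligand groups. The 2 groups are apart in every chain, with Itga6, Itgb1 and Itgb5 lower in C6-AQP1 and the other 13 chains higher; CPM is not corrected for transcript length, so heights compare groups within a gene and not genes with each other.

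All 3 measured collagen receptors rose, and all 3 pair with beta 1. Itga1 rose from 291 ± 1.05 to 429 ± 6.90 CPM (SD, n = 3; log2 fold change 0.56) and Itga2 from 15.6 ± 0.828 to 25.3 ± 0.935 CPM (0.69). Itga10 (ENSRNOG00000021217), best known from cartilage, had 2.74, 4.0 and 3.79 CPM in C6 control and 11.3, 9.08 and 9.83 CPM in C6-AQP1. The groups were apart by more than their spread, with 2.87-fold more in C6-AQP1 (log2 fold change 1.46, SE 0.12, adjusted p = 9.4e-10).

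Chains that read the RGD motif of fibronectin, vitronectin and related proteins also rose. Itgav (ENSRNOG00000004912), the alpha v chain, had 356, 358 and 344 CPM in C6 control and 879, 872 and 855 CPM in C6-AQP1, 2.46-fold higher (log2 fold change 1.30, SE 0.02, adjusted p = 9e-23). Itga8 (ENSRNOG00000016538), whose preferred ligand is nephronectin, had 24.9, 22.5 and 22.4 CPM in C6 control and 73.3, 74.8 and 72.9 CPM in C6-AQP1, 3.17-fold higher (log2 fold change 1.68, SE 0.04, adjusted p = 1.6e-19). In both chains the lowest C6-AQP1 library was more than 2-fold above the highest control library. Itga5, the alpha 5 chain of the main fibronectin receptor, rose only 1.15-fold, from 65.9 ± 1.89 to 75.7 ± 2.27 CPM (adjusted p = 9e-06). Itga4, the alpha 4 chain that binds VCAM1 and fibronectin, rose 1.52-fold, from 128 ± 4.01 to 194 ± 4.76 CPM (adjusted p = 7.9e-15).

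Beta chains that can pair with alpha v differed in direction. Itgb1, one of them, fell as described above. Itgb5, a vitronectin receptor chain, fell from 599.9 ± 10.3 to 459.6 ± 9.13 CPM (log2 fold change -0.38, adjusted p = 1.4e-13). Itgb3, the other vitronectin receptor chain, had 21.5, 20.3 and 20.6 CPM in C6 control and 36.0, 33.5 and 36.9 CPM in C6-AQP1, a rise of 1.71-fold (adjusted p = 3.5e-12). The log2 ratio of Itgb3 to Itgb5 was -4.85 ± 0.0388 in C6 control and -3.70 ± 0.0812 in C6-AQP1 (SD, n = 3). Itgb8 and Itgb6, whose alpha v receptors release active TGF-beta, rose 1.33-fold (adjusted p = 3.5e-12) and 1.63-fold (adjusted p = 0.00058). Itgb6 had only 43 to 144 counts in a library, and its SE of 0.17 was the largest among the integrins.

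The summed level of the 16 integrins was 7047 ± 7.30 CPM in C6 control and 6925 ± 30.4 CPM in C6-AQP1 (SD, n = 3; 0.983 times the control). The make-up of these counts differed more. Of the alpha chain counts, Itga6 took 65.1% ± 0.145 in C6 control and 45.4% ± 0.0878 in C6-AQP1, and Itgav 8.10% ± 0.182 and 19.2% ± 0.346. Of the beta chain counts, Itgb1 took 71.8% ± 0.251 and 65.6% ± 0.653, and Itgb4 0.227% ± 0.0108 and 6.24% ± 0.190. These are shares of counts, in which long transcripts weigh more, and not shares of receptors.

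Matrix ligands of the integrins moved in both directions. Of 30 such genes 21 were measured, 13 rose (61.9%, all genes 40.8%) and 8 fell (38.1%, all genes 40.7%). The median log2 fold change was 0.46. The largest changes were those of Postn (periostin) at -3.54, Fbln5 (fibulin 5) at 3.22, Spp1 (osteopontin) at -2.81 and Col1a1, a chain of type I collagen, at 2.60. Fbln5 had only 0.258 ± 0.0204 CPM in C6 control and may have been listed only through C6-AQP1. For pairs of receptor and ligand, Npnt (nephronectin), the ligand of alpha 8, rose from 1.68 ± 0.337 to 3.48 ± 0.356 CPM (adjusted p = 9.2e-06). Fn1 (fibronectin) rose from 2715 ± 33.5 to 5013 ± 138 CPM (adjusted p = 4.7e-20), while laminin chains, the ligands of alpha 6 receptors, went both ways. Of these, Lama5, Lama4, Lamb2 and Lamc1 rose, with log2 fold changes of 0.90, 0.70, 0.52 and 0.36, and Lama3, a chain of the laminin of hemidesmosomes, and Lamb1 fell, with -0.75 and -0.29. Spp1, a ligand of alpha v integrins, fell from 2584 ± 57.0 to 368 ± 6.52 CPM while Itgav rose. Collagen chains, beside the collagen receptors that all rose, also went both ways. Col1a1 and Col6a1 rose, with log2 fold changes of 2.60 and 0.30, and Col4a1 and Col4a2 fell, with -0.31 and -0.38. At its low control level, Npnt may have been listed only through C6-AQP1. Npnt, Fn1 and the laminin and collagen chains, all those measured on the list, were named for their receptors after their values had been seen.

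Among the adaptors, the one past both thresholds was Parvb (ENSRNOG00000055305), beta-parvin, which links ILK to actin and to regulators of Rac. It had 26.4, 27.7 and 25.4 CPM in C6 control and 1.38, 0.945 and 1.37 CPM in C6-AQP1, from 588, 1433 and 1297 counts and from 27, 39 and 58 counts. No C6-AQP1 library came near the controls, and the level was 21.5-fold lower (means 26.5 ± 1.17 and 1.23 ± 0.250 CPM, SD, n = 3; log2 fold change -4.45, SE 0.10, adjusted p = 6.5e-20). Parva, its paralog alpha-parvin, had 228, 225 and 229.5 CPM in C6 control and 162, 165 and 160.2 CPM in C6-AQP1, a fall of 1.40-fold (adjusted p = 1.3e-14). Neither paralog thus rose where the other fell. With so low a level in C6-AQP1, Parvb may have been listed only through C6 control, in which case its fall was fixed by the listing. The log2 ratio of Parvb to Parva was -3.10 ± 0.0780 in C6 control and -7.06 ± 0.331 in C6-AQP1 (SD, n = 3).

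Their shared partner Ilk, the pseudokinase at the core of the complex, had 353, 354 and 345 CPM in C6 control and 342, 363 and 352 CPM in C6-AQP1. The groups overlapped, and its log2 fold change was 0.01 (SE 0.02, adjusted p = 0.73). The other parts of the complex on the list of actin-linking proteins were likewise not called: Lims1 (PINCH1) had a log2 fold change of -0.02 (SE 0.03, adjusted p = 0.65), Lims2 (PINCH2) of 0.34 (SE 0.24, adjusted p = 0.21) and Rsu1, which binds PINCH1, of -0.11 (SE 0.06, adjusted p = 0.12). These 3 were named for their place in the complex after their values had been seen.

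**Figure D3:**
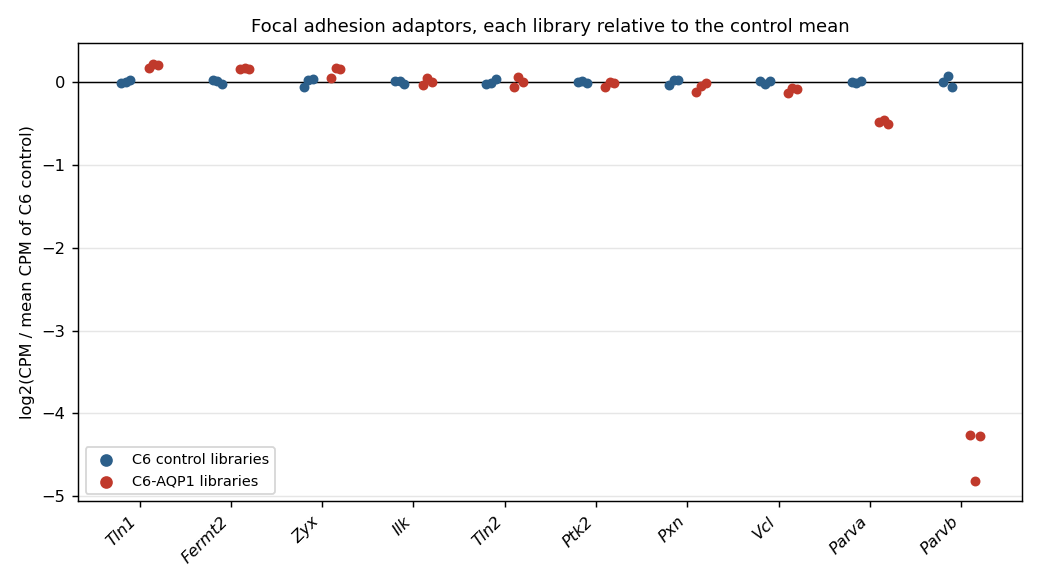
Level of the 10 adaptors in every library (points) as log2 of its CPM over the mean CPM of C6 control (vertical axis). Parvb lies more than 4 log2 units below the control mean in all 3 C6-AQP1 libraries and Parva somewhat below 0, while the other 8 adaptors stay near 0 in both groups.

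The other adaptors stayed within a narrow range. Tln1, talin 1, which opens integrins from the inside, had 648, 654 and 669 CPM in C6 control and 735, 766 and 757 CPM in C6-AQP1 (log2 fold change 0.20, SE 0.02, adjusted p = 7.3e-09). Fermt2, kindlin-2, its co-activator, had 443, 439.5 and 429 CPM in C6 control and 488, 493 and 489 CPM in C6-AQP1 (0.16, SE 0.02, adjusted p = 8.1e-08). Both rose by less than 1.2-fold, with all C6-AQP1 libraries above the controls. Tln2, the second talin, had 169 ± 3.68 and 168 ± 7.27 CPM, with a log2 fold change of -0.00 (SE 0.03, adjusted p = 0.99). Zyx, zyxin, rose 1.09-fold (adjusted p = 0.0017) and Vcl, vinculin, fell 1.07-fold (adjusted p = 0.00081). Ptk2, the focal adhesion kinase FAK, had 137 ± 1.08 and 134 ± 3.24 CPM (log2 fold change -0.02, SE 0.03, adjusted p = 0.37).

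Pxn, the scaffold paxillin, was called lower (277 ± 5.83 and 266 ± 9.82 CPM, adjusted p = 0.036), but its libraries overlapped. The call was lost without C6-AQP1 replicate 1 (adjusted p = 0.13) or 2 (0.058) and without C6 control replicate 2 (0.198) or 3 (0.182). The summed level of the 10 adaptors was 2592 ± 11.3 CPM in C6 control and 2634 ± 55.8 CPM in C6-AQP1.

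Kinases, scaffolds and actin linkers outside the members changed modestly. Over all genes, 40.8% rose and 40.7% fell. Of 25 focal adhesion kinases and scaffolds, 21 were measured, 15 rose (71.4%), 5 fell (23.8%) and none changed more than 2-fold. Leading among them were Arhgef6 (alpha-PIX, an exchange factor for Rac) with a log2 fold change of 0.90, Elmo1 with 0.82, Git1 with 0.66 and the kinase Src with 0.64. Of 28 actin-linking proteins, 24 were measured, 13 rose (54.2%) and 7 fell (29.2%). The largest changes were those of Tns1 (tensin 1) at 1.18, Lpp at 0.92, Svil (supervillin) at 0.86 and Tns2 at 0.80. Of 20 regulators of integrin activity, 19 were measured, 8 rose (42.1%) and 9 fell (47.4%), close to the shares over all genes. The largest changes there were those of Plaur, the urokinase receptor, at -1.35, the tetraspanin Cd151, a partner of laminin-binding integrins, at -0.92, Apbb1ip (RIAM, which brings talin to the membrane) at 0.69 and the tetraspanin Cd82 at -0.60.

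Cadherins changed in opposite directions by type. Cdh2, N-cadherin, was the only type I cadherin measured and fell, while all 5 type II cadherins measured and the atypical Cdh13 rose. Cdh2, the main neural cadherin, had 591, 608 and 598 CPM in C6 control and 345, 355 and 352 CPM in C6-AQP1, 1.71-fold lower (log2 fold change -0.77, SE 0.02, adjusted p = 4.3e-19). Cdh13, T-cadherin, which is held in the membrane by a GPI anchor and lacks the tail that binds catenins, had 364, 359 and 357 CPM in C6 control and 683, 714 and 690.2 CPM in C6-AQP1. It was 1.93-fold higher (log2 fold change 0.95, SE 0.02, adjusted p = 1.9e-20), just under the 2-fold limit. In neither gene did the libraries of the groups come near each other.

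**Figure D4:**
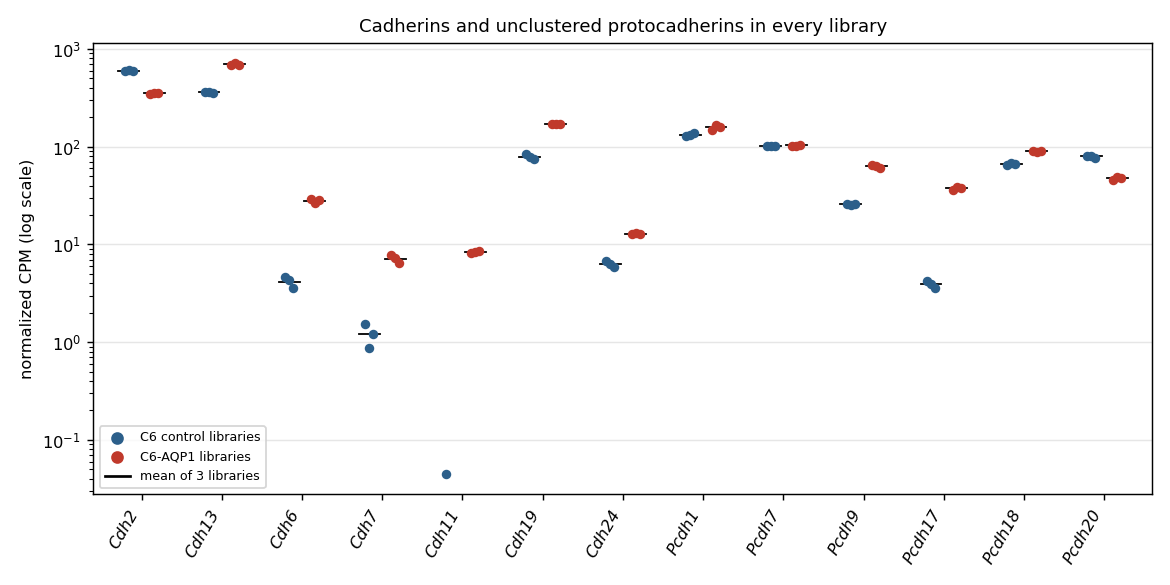
Normalized CPM of the 7 cadherins and 6 unclustered protocadherins in every library (points, log axis; short bars are group means of 3). Cdh2 and Pcdh20 are lower in C6-AQP1, Pcdh7 is nearly level, and the other genes are higher; 2 control libraries with 0 Cdh11 counts cannot be drawn on a log axis, and no control mean is drawn for that gene.

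The type II cadherins are known from neural crest, glia and mesenchyme. Cdh11 (ENSRNOG00000013481), the cadherin of mesenchymal cells and osteoblasts, had 1, 0 and 0 counts in C6 control and 159, 345 and 359 counts in C6-AQP1. In C6-AQP1 this was 8.14, 8.36 and 8.49 CPM, a small spread, so that the gene was close to the detection limit in one group and evenly measured in the other. As the authors had kept genes by expression, Cdh11 could be listed only through the C6-AQP1 group. Over each group together, 863 counts stood against 1, which is 1047 times the control after scaling, with an exact 95% interval of 187.5 to 41417 for counting error alone. No p is given for this gene, and it enters the 12 rises past both thresholds and the 5 type II cadherins by the way it came to be listed.

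Cdh6 (ENSRNOG00000013535), K-cadherin, had 4.62, 4.33 and 3.54 CPM in C6 control and 29.1, 26.8 and 28.2 CPM in C6-AQP1, 6.73-fold higher (log2 fold change 2.77, SE 0.08, adjusted p = 4.2e-18). Cdh7 (ENSRNOG00000032490), known from migrating neural crest, had 1.53, 0.870 and 1.21 CPM in C6 control and 7.78, 7.22 and 6.45 CPM in C6-AQP1, 5.95-fold higher (log2 fold change 2.63, SE 0.16, adjusted p = 1.8e-12). It rested on only 34 to 62 counts in each control library, yet the groups were well apart. With so low a level in C6 control, Cdh7 may have been listed only through C6-AQP1, in which case its rise was fixed by the listing. Cdh19 (ENSRNOG00000029841), known from Schwann cell precursors, had 83.6, 78.8 and 74.4 CPM in C6 control and 172, 169 and 172 CPM in C6-AQP1, 2.17-fold higher (log2 fold change 1.12, SE 0.03, adjusted p = 2e-16). Cdh24 (ENSRNOG00000013503) had 6.78, 6.26 and 5.87 CPM in C6 control and 12.7, 13.2 and 12.7 CPM in C6-AQP1. At 2.04-fold (log2 fold change 1.04, SE 0.08, adjusted p = 7.8e-11) it was the member just above the 2-fold limit, while Pcdhb22 (1.98-fold) and Cdh13 lay just below.

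**Figure D5:**
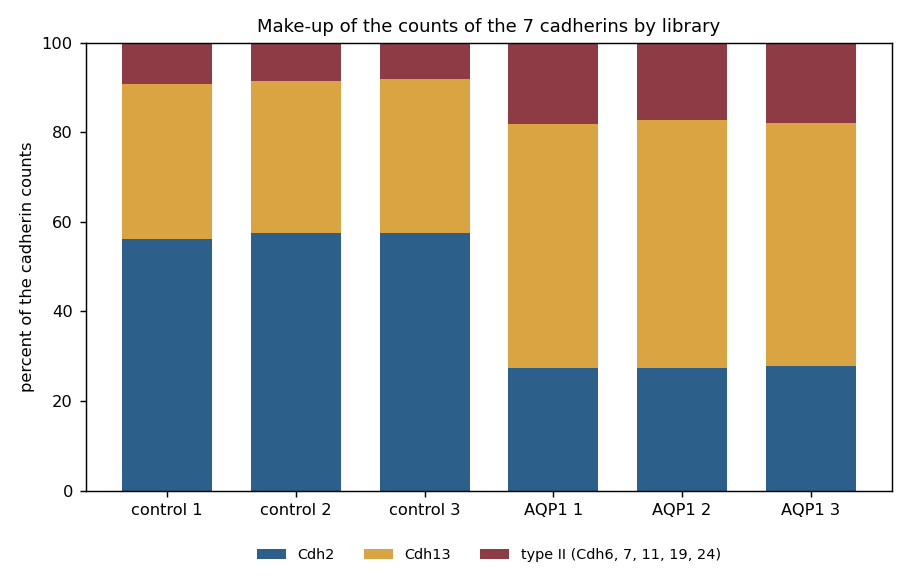
Share of all cadherin counts taken by Cdh2, Cdh13 and the 5 type II cadherins in each library (stacked bars in percent, from 0 to 100). Cdh2 takes 57.1% on average in C6 control and 27.6% in C6-AQP1, Cdh13 34.3% and 54.6%, and type II cadherins 8.63% and 17.9%.

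The summed level of the 7 cadherins was 1050.0 ± 8.75 CPM in C6 control and 1274 ± 18.8 CPM in C6-AQP1 (SD, n = 3), and its make-up differed. Cdh2 took 57.1% ± 0.764 of cadherin counts in C6 control and 27.6% ± 0.149 in C6-AQP1. Cdh13 took 34.3% ± 0.340 and 54.6% ± 0.496, and the type II cadherins together 8.63% ± 0.518 and 17.9% ± 0.451. These are shares of counts, not corrected for transcript length. The log2 ratio of Cdh11 to Cdh2, with 0.5 added to each count, was -5.39 ± 0.0189 in C6-AQP1 (SD, n = 3), while in C6 control it was set by the added 0.5 and the depth, so no size is given for the difference.

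Most measured catenins and catenin partners rose. For 18 such symbols 13 genes were measured, with both genes under the symbol Ctnna3 counted. Of these, 10 rose (76.9%, all genes 40.8%) and 2 fell (15.4%, all genes 40.7%), with a median log2 fold change of 0.31. Both genes listed under the symbol Ctnna3 (alpha-T-catenin) rose, with log2 fold changes of 3.44 and 2.85, from 0.581 ± 0.0373 and 0.123 ± 0.0215 CPM in C6 control. At such low control levels they may have been listed only through C6-AQP1, in which case their rise was fixed by the listing. Jup, plakoglobin, and Ctnnal1 rose by 1.13 and 1.10. Ctnnb1, beta-catenin, which binds the tail of classical cadherins and also carries Wnt signals, fell from 590.4 ± 4.82 to 378 ± 12.9 CPM (log2 fold change -0.64, SE 0.02, adjusted p = 7.5e-17). Ctnna1 and Ctnnd1, the alpha-catenin and p120-catenin of most cells, rose by 0.07 and 0.19. Ctnnb1, Ctnna1 and Ctnnd1 were named for their roles after their values had been seen.

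L1cam (ENSRNOG00000061230), an immunoglobulin adhesion molecule of growing axons that binds its own kind and RGD-binding integrins, had 10.6, 10.7 and 10.8 CPM in C6 control and 73.5, 73.5 and 74.4 CPM in C6-AQP1. The spread within each group was very small beside the difference of 6.90-fold (log2 fold change 2.78, SE 0.04, adjusted p = 5.3e-23). Ncam1, the neural cell adhesion molecule, had 357, 366 and 372 CPM in C6 control and 472, 485 and 482 CPM in C6-AQP1. It rose 1.31-fold (log2 fold change 0.39, SE 0.02, adjusted p = 1e-13).

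Of the 6 unclustered protocadherins, which each have a gene locus of their own, 4 rose, 1 fell and 1 was not called. The rises were 66.7% (all genes 40.8%) and the falls 16.7% (all genes 40.7%). Pcdh17 (ENSRNOG00000008970) had 4.17, 3.92 and 3.62 CPM in C6 control and 35.8, 38.8 and 37.9 CPM in C6-AQP1, 9.60-fold higher (log2 fold change 3.29, SE 0.07, adjusted p = 1.2e-20). Pcdh9 (ENSRNOG00000038068) had 26.0, 25.5 and 25.8 CPM in C6 control and 65.0, 63.0 and 60.8 CPM in C6-AQP1, 2.44-fold higher (log2 fold change 1.29, SE 0.04, adjusted p = 7.5e-18). Both are delta protocadherins, which are known from the developing brain. The delta group also holds Pcdh1, Pcdh7 and Pcdh18, which changed less. Pcdh20 moved the other way from Pcdh17 and Pcdh9, with 80.9, 80.3 and 77.5 CPM in C6 control and 45.5, 49.2 and 47.3 CPM in C6-AQP1. It was 1.68-fold lower (log2 fold change -0.74, SE 0.03, adjusted p = 1.7e-14). Pcdh1 had 127, 132 and 137 CPM in C6 control and 149, 165 and 159.9 CPM in C6-AQP1, and it rose 1.19-fold. Pcdh18 rose 1.34-fold, and Pcdh7 had 101 ± 0.686 and 103 ± 0.540 CPM (log2 fold change 0.03, SE 0.03, adjusted p = 0.33).

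The 14 clustered protocadherins come from the tandem alpha, beta and gamma arrays, from which single neurons choose a few. Of these, 9 rose (64.3%, all genes 40.8%), 1 fell (7.14%, all genes 40.7%) and 4 were not called. None changed more than 2-fold, and the median log2 fold change was 0.32. Pcdhgc3, a C-type member of the gamma array, had 357, 364 and 371 CPM in C6 control and 388, 407 and 410.0 CPM in C6-AQP1, a rise of 1.10-fold (adjusted p = 5.9e-06). Pcdhac1, of the alpha array, had 112, 114 and 115 CPM and 115, 121 and 121 CPM, which overlapped (adjusted p = 0.024), and its call was lost without C6-AQP1 replicate 2 (adjusted p = 0.108) or 3 (0.101) and without C6 control replicate 1 (0.0502). Larger changes were seen in sparsely counted genes, with log2 fold changes of 0.93 for Pcdhb22 (SE 0.21), 0.81 for Pcdhb21 (SE 0.14) and 0.72 for Pcdhgb8 (SE 0.16). The 8 beta members had 26 to 557 counts in a library.

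The calls of 3 more clustered genes changed when single libraries were left out. Pcdhb15 was the one that fell (adjusted p = 0.01), with 6.37, 6.81 and 6.81 CPM in C6 control and 6.56, 4.77 and 3.90 CPM in C6-AQP1, so that the groups overlapped. This call was lost without C6-AQP1 replicate 2 (adjusted p = 0.0569) or 3 (0.0634) and without C6 control replicate 2 (0.0514) or 3 (0.0512). The rise of Pcdhb17 (adjusted p = 0.013) was lost without C6-AQP1 replicate 1 (adjusted p = 0.091), which held its highest value of 2.82 CPM. Pcdhgb7 was not called (adjusted p = 0.084) but passed without C6-AQP1 replicate 1 (adjusted p = 0.0478) or C6 control replicate 3 (0.0188). The beta members are close paralogs and the members of the alpha and gamma arrays share constant exons, so RSEM may have divided reads among them, and their values are uncertain.

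Upstream sequences were available for 39 of the 55 members and for 10 of the 13 past both thresholds, from RefSeq on the rat build GRCr8, and cover the 250 bases before each gene start. The reads had been aligned to another build, rn6, so these coordinates are not those of the count tables. The windows were searched on both strands for words of the transcription factor families that the title of the study names. For FOXO the word was TTGTTT, for MAZ GGGAGGAA, GGGAGGAG, GGGAGGGA or GGGAGGGG, and for E2F TTTCGCGC or TTTGGCGC, and the word AACTTT was searched as well. Shown are the 6 windows of Parvb, Itgav and the 4 type II cadherins with a sequence, as an example of each kind of change described above. Itgb4, Cdh11 and L1cam had no entry. The windows of Itga8, Itga10, Pcdh17 and Pcdh9, which also passed both thresholds, are not printed. Those of Itga8, Pcdh17 and Pcdh9 held none of the words, and that of Itga10 held 2 MAZ words and 1 AACTTT. The windows shown lie at chr7:117239988-117240237 on the plus strand (Parvb), chr3:89245132-89245381 plus (Itgav), chr2:63952288-63952537 minus (Cdh6), chr13:27197332-27197581 plus (Cdh7), chr13:28533754-28534003 minus (Cdh19) and chr15:32071284-32071533 minus (Cdh24). Each is written 5′ to 3′ on the strand of the gene, and capitals mark a word found on either strand, none of which overlap.
Parvb: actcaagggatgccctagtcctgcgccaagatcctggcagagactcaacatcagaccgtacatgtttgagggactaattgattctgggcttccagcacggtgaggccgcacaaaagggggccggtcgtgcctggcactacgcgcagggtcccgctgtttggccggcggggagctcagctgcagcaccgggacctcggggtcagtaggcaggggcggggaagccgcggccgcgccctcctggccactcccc
Itgav: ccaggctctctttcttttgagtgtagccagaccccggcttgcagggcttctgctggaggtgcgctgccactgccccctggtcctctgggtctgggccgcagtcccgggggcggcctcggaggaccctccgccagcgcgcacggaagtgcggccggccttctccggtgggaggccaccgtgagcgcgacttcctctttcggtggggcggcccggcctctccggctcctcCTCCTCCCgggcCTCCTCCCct
Cdh6: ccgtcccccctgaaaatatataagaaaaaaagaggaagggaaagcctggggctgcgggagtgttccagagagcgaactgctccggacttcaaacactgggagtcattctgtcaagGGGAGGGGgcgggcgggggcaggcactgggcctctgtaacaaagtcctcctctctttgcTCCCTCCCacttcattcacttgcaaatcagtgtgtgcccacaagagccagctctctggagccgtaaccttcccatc
Cdh7: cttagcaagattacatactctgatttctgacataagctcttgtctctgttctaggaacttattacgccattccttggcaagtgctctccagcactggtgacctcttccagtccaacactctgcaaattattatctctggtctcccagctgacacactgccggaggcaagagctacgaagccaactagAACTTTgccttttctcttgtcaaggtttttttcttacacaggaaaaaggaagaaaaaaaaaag
Cdh19: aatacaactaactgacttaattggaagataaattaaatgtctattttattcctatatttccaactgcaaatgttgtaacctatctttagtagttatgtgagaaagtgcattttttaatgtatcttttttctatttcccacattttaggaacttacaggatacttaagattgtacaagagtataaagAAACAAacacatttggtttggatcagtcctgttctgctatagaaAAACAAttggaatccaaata
Cdh24: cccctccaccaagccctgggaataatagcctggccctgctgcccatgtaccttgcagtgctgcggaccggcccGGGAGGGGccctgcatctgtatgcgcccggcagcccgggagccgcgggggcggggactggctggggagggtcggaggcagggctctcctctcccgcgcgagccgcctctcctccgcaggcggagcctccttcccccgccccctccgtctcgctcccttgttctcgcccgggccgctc

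The window of Parvb held none of the words. Those of Itgav and Cdh6 held 2 MAZ words each and that of Cdh24 held 1, the window of Cdh19 held 2 FOXO words and that of Cdh7 held 1 AACTTT. A MAZ word was found in 12 of the 39 members (30.8%), against 22.7% of all 27457 genes with a RefSeq window. An E2F word was found in none, against 0.717% of those genes. A FOXO word was found in 8 members (20.5%, all RefSeq genes 19.3%), and an AACTTT in 7 (17.9%, all RefSeq genes 13.8%). The 27457 genes are not limited to the 12121 kept by expression, from which the members came, so these shares compare unlike sets of genes. Among the 10 members past both thresholds, 4 held a MAZ word, 2 an AACTTT, 1 a FOXO word and none an E2F word. No word was thus found in all 4 windows of type II cadherins, although those of Cdh6 and Cdh24 both held a MAZ word. A match describes letters only and is not evidence of binding, and a window without a match says only that these letters are not in it.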

How the data were processed

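Gene expression was measured in 3 C6-AQP1 and 3 C6 control libraries made from amplified cDNA. The labels give single reads of 100 nucleotides and the methods paired-end ones. By the methods and processing notes of the submitters, reads were checked with FastQC (0.11.2), trimmed with Trimmomatic (0.36), aligned to rn6 with STAR (2.5.1b) and quantified with RSEM (1.2.29). Which annotation was used is not stated. The values deposited by the authors are expected counts, estimates without normalization, for 12121 genes kept by a filter on mean TPM. RSEM divides reads that fit several genes, so paralogs are less certain.

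Expected counts were rounded and scaled by TMM in edgeR 4.0.16 (R 4.3.3). Groups were compared by the robust quasi-likelihood test without covariates, adjusted by Benjamini-Hochberg over all 12121 genes. A gene rose or fell at an adjusted p under 0.05, and both thresholds add a fold change above 2, as in the methods. The common coefficient of biological variation was 2.97%. Library totals of 19054251 to 52725877 limit the precision of genes with few counts. Replicates of a group differed by more than sampling noise (chi-square per degree of freedom 2.15 to 4.29), so each library was counted separately. The steps were tested on simulated data.

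Every member may be named. Values in every library are given for members past both thresholds and for the 3 with most counts of each family, and up to 4 genes are named for each list of related genes by size of change, except an item that is not reported here; genes named beyond these are marked in the text. The members and lists were chosen with earlier results of these data known. Alternatives were DESeq2 1.42.0, limma-voom (limma 3.58.1), other size factors, a minimum of 1 CPM in 3 libraries, a replicate block, leaving out libraries and thinning to the smallest total. Transcript lengths were not used, so shares of counts and CPM limits are not corrected for length.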

Additional observations from a re-analysis of the deposited data

How the results depend on the processing

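Over 13 alternatives for each member, 50 of the 55 kept their call or lack of one in all of them, 5 changed (Pxn, Pcdhac1, Pcdhb15, Pcdhb17 and Pcdhgb7), and no called direction reversed. The members called higher numbered 36 to 38 and those called lower 8 to 10. With the fold threshold, 12 or 13 were higher and 1 lower, and Pcdhb22 was the additional one (without C6-AQP1 replicate 3, without C6 control replicate 3 and after thinning). Of the 13 members past both thresholds, all kept an adjusted p under 0.05, with Cdh11 left aside because no p is given for it. None fell under a 2-fold change, with the smallest log2 fold change that of Cdh24 at 1.00 without C6 control replicate 3. Pxn also lost its call with DESeq2 (adjusted p = 0.0608) and after thinning (0.279), Pcdhac1 with DESeq2 (0.0671), Pcdhb15 after thinning (0.0788) and Pcdhb17 without the shallower library of both groups (0.0883). The median log2 fold change of the integrins lay between 0.564 and 0.595 (0.578 as reported) under all of them. With a replicate block, 37 members were higher and 10 lower, and over all genes 5006 and 4976, against 4948 and 4930 without it. Deviations of same-numbered libraries from their group means correlated between -0.0124 and 0.126 (Pearson's r across genes), and not every library correlated best with its own number, so the numbers were not taken to pair libraries. Depth limits most the members with few counts, such as Cdh11 in C6 control, the beta protocadherins, Itgb6 and Cdh7.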

Other observations

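Relatives of the members outside the rule changed as follows. All 6 measured large and seven-pass cadherins and calsyntenins (of 20) rose, against 40.8% of all genes, with a median log2 fold change of 0.56. Celsr2, a seven-pass cadherin of planar polarity, rose from 10.1 ± 0.402 to 56.8 ± 1.35 CPM (SD, n = 3; log2 fold change 2.48, SE 0.05, adjusted p = 2.5e-21 by edgeR). Clstn3, a calsyntenin of synapses, rose by 1.05, and the giant cadherins Fat4 and Fat1 rose by 0.76 and 0.36. Of 24 other immunoglobulin adhesion molecules 11 were measured, 7 rose (63.6%, all genes 40.8%) and 4 fell (36.4%, all genes 40.7%). Vcam1, the ligand of the alpha 4 integrin chain, rose from 1.27 ± 0.259 to 7.32 ± 1.1 CPM (log2 fold change 2.49, SE 0.15, adjusted p = 1.7e-12) and Jam2, a junctional adhesion molecule, from 21.5 ± 0.441 to 57.1 ± 0.152 CPM (1.41, SE 0.04, adjusted p = 2e-18). At its low control level, Vcam1 may have been listed only through C6-AQP1, in which case its rise was fixed by the listing. Chl1, a close relative of L1cam, rose by 0.59, well under the 2.78 of L1cam.

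Members past both thresholds were nearly all among those with fewer counts. Of the 25 members at or above 100 CPM in C6 control, 1 (Itgav, 4%) passed both, and the median size of the log2 fold change was 0.26. Of the 30 below 100 CPM, 12 (40%) did, with a median size of 0.76. Over all genes the shares were 7.80% of 2437 and 15.7% of 9684. Genes with very few control counts, such as Cdh11, could be listed only through C6-AQP1, so the listing itself favours large rises below 100 CPM. The limit of 100 CPM was chosen after the values had been seen, it is read from the control libraries that also enter the fold change, and the difference between members and other genes was not tested.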
